A study of Homo sapiens with 10 samples.

Results

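The comparison described here set the arrays labelled luteolin against the arrays of vehicle-treated cells. Its members were chosen by sample title alone: 2 arrays of PC-3 cells labelled with 60 µM luteolin and 2 arrays of PC-3 cells labelled with DMSO, both after 24 h, out of 10 arrays in the series. PC-3 is an established human prostate cancer cell line that grows without androgen. The other arrays held cells at 0 h, cells labelled with 60 µM gefitinib and cells labelled with both drugs at 60 µM, with 2 arrays each. All cells were grown in medium with serum, and the drugs were given in DMSO, so the DMSO cells received the solvent that all drug-treated cells also received. The labels call the arrays of a group biological replicates, and n = 2 in each group throughout.

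The names of the scanner files do not carry the treatment of the labels. The files of both arrays labelled luteolin carry "Gef" in place of luteolin, those of the arrays labelled gefitinib carry "L+G", and those of the arrays labelled with both drugs carry "Lu+". The names of the DMSO files carry no other treatment. In the order of deposit the file names of the drug-treated arrays run alphabetically, whereas the labels run luteolin, gefitinib and both. The exchange is therefore a doubt about every value below, and the treatment that these cells received may be the one in the file names. For LEFTY1, the order and approximate size of the rises reported by the study are those of the file names, as given below. The arrays are called labelled luteolin, after their sample titles, and every direction is that of the arrays so labelled, not of the drug.

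Luteolin is a plant flavone that can inhibit several protein kinases, and the study paired it with gefitinib, an inhibitor of the EGF receptor, in work on the kinase GAK. A cell that leaves the division cycle stops making the mRNA of the genes for DNA replication and mitosis. In textbook terms, CDK inhibitors keep the RB family active, RB proteins bind E2F factors, and the DREAM and MuvB complexes silence mitotic genes. A separate programme, the integrated stress response, translates the factor ATF4 when amino acids run short, the endoplasmic reticulum is stressed or haem is low, and ATF4 then induces genes of amino acid uptake and synthesis. The arrays measured mRNA of the whole culture, in which fewer cells of a type and less RNA per cell cannot be told apart.

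Each array held 45015 spots. Of 41000 probes, 28776 were kept, each marked well above background on the 2 arrays of some group, and they represented 19718 genes. A level is given as a log2 signal after division by the array's 75th percentile, and a change as the mean level on the arrays labelled luteolin minus the mean level on the DMSO arrays. Raised and lowered genes are those with a change of at least 2-fold and an adjusted p under 0.05 (limma with Benjamini-Hochberg adjustment). Of all genes, 1420 were raised, which is 7.2%, and 1216 were lowered, which is 6.17%. Their changes reached 4-fold for 245 raised and 284 lowered genes and 8-fold for 32 and 53. The median change of all genes was 0.08. The shares of 7.2% raised and 6.17% lowered stand beside every count of a list or family below. The arrays of the groups did not overlap in 73.8% of all genes, so a lack of overlap is the common case here. Without luteolin replicate 2 the counts were 913 raised and 723 lowered, without DMSO replicate 1 they were 931 and 838, and without DMSO replicate 2 they were 913 and 841.

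DMSO replicate 1 and luteolin replicate 1 lay on the same slide, and DMSO replicate 2 and luteolin replicate 2 lay together on another. The change could therefore be read within each slide, and across genes, which are not independent replicates, the changes on the slides correlated with r = 0.846. The median change of the raised genes was 1.32 on slide 1 and 1.48 on slide 2, and that of the lowered genes was -1.31 and -1.64. Of the genes called, 1996 changed more on slide 2 and 640 more on slide 1. Signals were somewhat dimmer with the luteolin label, with a 75th percentile of 1173 and 1041 against 1350 and 1283 for DMSO. The share of probes well above background was 66.9% and 67.1% with DMSO and 68.9% and 63.8% with the luteolin label, and its part in the larger changes on slide 2 was not tested.

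**Figure D1:**
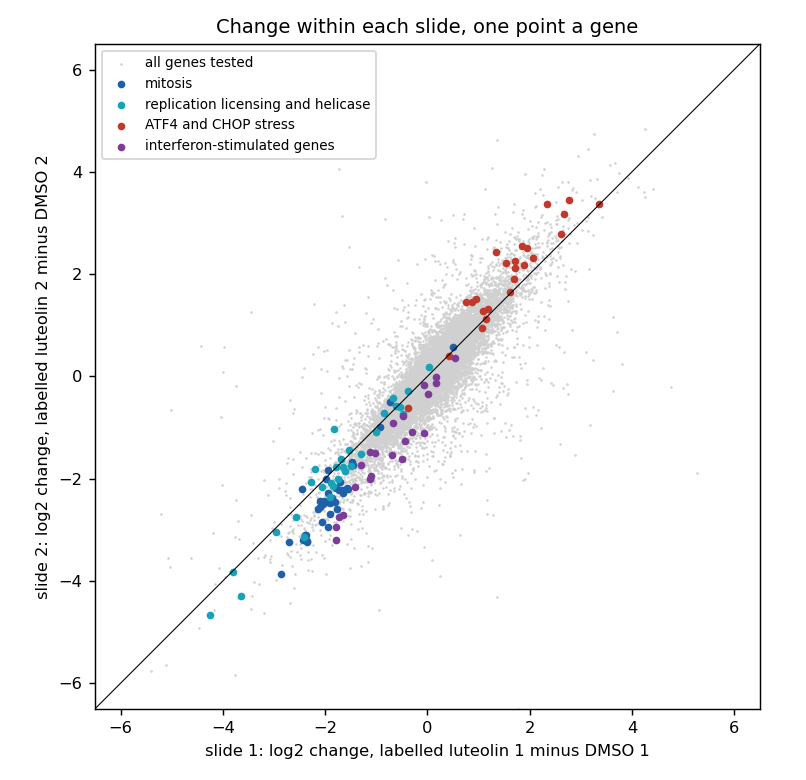
Each point is 1 of 19718 genes, with its log2 change within slide 1 on the horizontal axis and within slide 2 on the vertical axis. The line marks equal change. Colored points are the members of 4 gene lists. Mitotic genes (dark blue) and ATF4 genes (red) lie mostly beyond the line on slide 2, replication licensing genes (teal) lie close to it, and interferon-stimulated genes (purple) fall further on slide 2 than on slide 1.

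Genes of DNA replication fell together in the arrays labelled luteolin. The licensing list, which holds the MCM helicase, the origin recognition complex and the factors that load and fire them, had 29 genes tested, of which 22 were lowered and 0 raised, with a median change of -1.73 against 0.08 for all genes. Among the 28 genes of DNA synthesis and nucleotide supply, 18 were lowered and 0 raised (median -1.36). In the list of replication-coupled chromatin factors, 12 of 13 were lowered and 0 raised (median -1.58). Within the slides, the licensing median was -1.75 on slide 1 and -1.77 on slide 2.

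RRM2 encodes the regulated subunit of ribonucleotide reductase, which makes deoxyribonucleotides. Its level was 2.20 and 2.30 on the DMSO arrays and -2.26 and -2.61 on the arrays labelled luteolin, 25.8-fold lower (log2 change -4.69, SE 0.24, adjusted p = 8.6e-05). Its probe lies at chr2:10186825-10186884 of hg18, the build of the scanner files, and its other probe changed by -4.66. UHRF1, which brings DNA methyltransferase 1 to newly copied DNA, was at 2.08 and 1.84 with DMSO and at -2.09 and -2.74 with the luteolin label (-4.37, SE 0.24, adjusted p = 0.000116). DTL, the substrate receptor of a ubiquitin ligase that destroys CDT1 in S phase, went from 1.58 and 1.68 to -2.06 and -2.61 (-3.96, adjusted p = 0.000116). GINS2, a subunit of the replicative helicase, went from 2.33 and 2.44 to -1.47 and -1.38 (-3.81, adjusted p = 8.6e-05). In each of these genes the arrays of a group lay close together and the groups were separated by more than 3 log2 units. MCM10, a helicase cofactor, fell by 4.46 (adjusted p = 7.94e-05), and it was well above background on 1 of the 2 arrays labelled luteolin.

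The subunits of the MCM helicase, which unwinds DNA at the fork, changed by similar amounts. MCM3 was at 3.90 and 3.88 with DMSO and at 2.06 and 1.74 with the luteolin label. MCM7 was at 5.31 and 5.26 with DMSO and remained bright, at 3.53 and 3.49, with the luteolin label. The changes were -1.98 for MCM2, -1.99 for MCM3, -2.11 for MCM4, -1.71 for MCM5, -1.41 for MCM6 and -1.77 for MCM7, all past the threshold. CDT1, which loads MCM, fell by 2.0, and GMNN (geminin), which blocks CDT1, fell by 1.73. The origin recognition complex was not uniform. ORC1, its cycle-regulated subunit, fell by 2.17 (adjusted p = 0.00424), whereas ORC2 changed by -0.33 (adjusted p = 0.265), ORC4 by 0.11 (adjusted p = 0.731), ORC3 by -0.57, ORC5 by -0.61 and ORC6 by -0.78, none of them past the 2-fold minimum, although the other probe of ORC6 changed by -2.24.

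In the synthesis list, TYMS (thymidylate synthase) went from 5.19 and 5.23 to 2.91 and 3.03 (-2.24, adjusted p = 0.000402). PCNA, the sliding clamp, went from 3.28 and 3.18 to 1.87 and 1.73 (-1.43, adjusted p = 0.00275). PRIM1, the primase, fell by 2.85 and RRM1, the large reductase subunit, by 2.09. The single-strand binding proteins RPA1, RPA2 and RPA3 changed by -0.59, -0.70 and -0.40 and did not pass. RFC1, the large clamp loader subunit, changed by 0.58 (adjusted p = 0.0852), while the other clamp loader subunits RFC2, RFC3, RFC4 and RFC5 fell by 1.86, 2.0, 1.01 and 1.56. In the chromatin list, LMNB1 (lamin B1) fell by 3.36, HELLS, a chromatin remodeller, by 2.87, EZH2, a histone methyltransferase, by 1.58 and DNMT1, the maintenance DNA methyltransferase, by 1.30. LBR (lamin B receptor) was the member not called, with a change of 0.01 (adjusted p = 0.97).

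**Figure D2:**
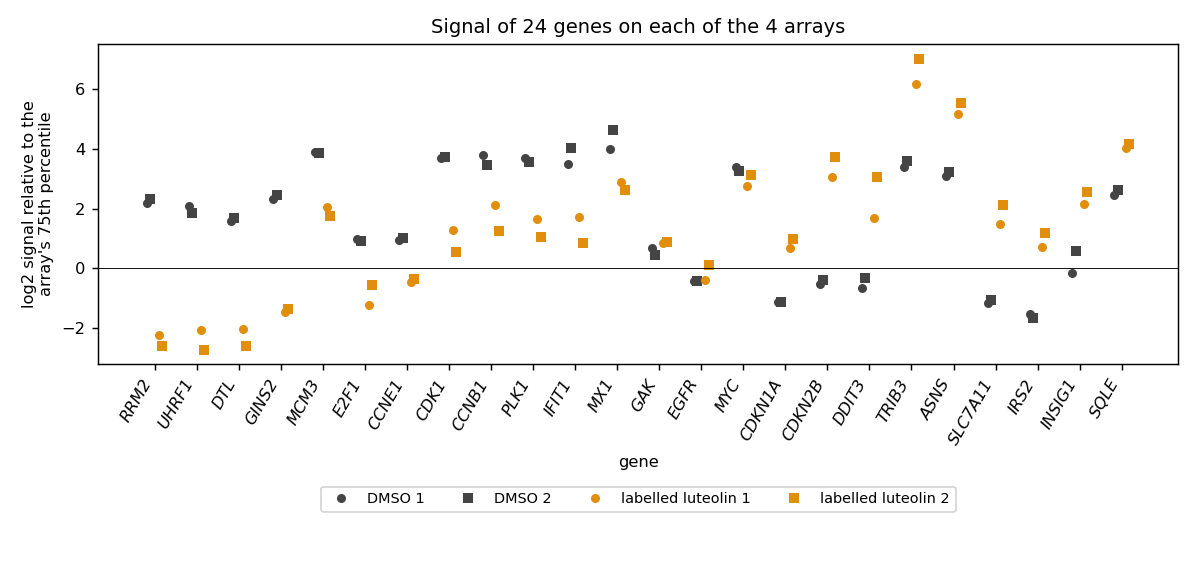
Points give the log2 signal of 24 genes relative to the 75th percentile of each array (vertical axis), in gray for the 2 DMSO arrays and orange for the 2 arrays labelled luteolin, with circles for replicate 1 and squares for replicate 2. The replication and mitosis genes on the left lie lower in orange than in gray, the stress, CDK inhibitor and sterol genes on the right lie higher, and GAK, EGFR and MYC lie within about 1 log2 unit across the 4 arrays.

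Mitotic genes had the lowest median of the 27 lists. Of 36 tested, 33 were lowered and 0 raised, with a median change of -2.19. That median was -1.94 within slide 1 and -2.44 within slide 2, and 33 of the 36 changed further on slide 2. CDK1, the kinase that drives mitotic entry, was at 3.70 and 3.73 with DMSO and at 1.27 and 0.52 with the luteolin label (-2.82, SE 0.30, adjusted p = 0.00091). CCNB1 (cyclin B1), its partner, went from 3.79 and 3.46 to 2.13 and 1.24 (-1.94, adjusted p = 0.00265). PLK1, a mitotic kinase, went from 3.70 and 3.56 to 1.66 and 1.06 (-2.27, adjusted p = 0.000787). In these 3 genes the second array labelled luteolin was the lowest of the 4.

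CCNA2 (cyclin A2) fell by 2.97, TOP2A, which untangles chromosomes, by 2.80, AURKB of the chromosomal passenger complex by 2.75 and the kinetochore gene NDC80 by 2.74. MKI67, the gene of the proliferation marker Ki-67, was at -1.25 and -1.63 with DMSO and at -4.12 and -5.50 with the luteolin label, where it was well above background on 1 of 2 arrays (-3.37, adjusted p = 0.00143). FOXM1, a factor that activates mitotic genes, was at 1.95 and 1.8 with DMSO and at 1.22 and 1.29 with the luteolin label (-0.62, adjusted p = 0.07). ECT2, needed for cytokinesis, changed by -0.95 and missed the 2-fold minimum. CDC25B, a phosphatase that activates CDK1, changed by 0.53 (adjusted p = 0.0423) and was the member with the highest change.

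Genes of homologous recombination and the Fanconi pathway, which repair broken or crosslinked DNA in S and G2 phase, showed the same direction. Of 24 tested, 17 were lowered and 0 raised (median -1.66). EXO1, a resecting nuclease, went from 0.68 and 0.83 to -2.71 and -3.19 (-3.71, adjusted p = 0.000206). BRCA1 went from -0.67 and -0.54 to -2.76 and -2.98 (-2.27, adjusted p = 0.000905). FANCA fell by 2.89, RAD54L by 2.71, FANCD2 by 2.07 and CHEK1, the S phase checkpoint kinase, by 1.02. The members not called included FANCF (-0.03), FANCE (-0.10) and CHEK2 (-0.32). Over the licensing, synthesis, chromatin, mitosis and repair lists together, 130 genes were tested, 102 were lowered, 0 were raised and 126 had a change below 0 (median -1.88). Leaving out any 1 of the 4 arrays left 13 to 18 genes lowered in the synthesis list, 14 or 15 in the repair list, 21 or 22 in the licensing list and 32 or 33 in the mitosis list.

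The list of E2F factors, RB proteins and G1 cyclins divided by member. Of 22 tested, 10 were lowered and 0 raised (median -0.82). E2F1, an activating factor, was at 0.96 and 0.92 with DMSO and at -1.24 and -0.58 with the luteolin label (-1.85, adjusted p = 0.00218). E2F2 fell by 5.37 (adjusted p = 8.6e-05) and was well above background on 1 of 2 arrays labelled luteolin. Its probe lies at chr1:23705520-23705579 of hg18, and its other probe changed by -0.09, so its probes disagree. E2F8, an atypical repressor, fell by 4.79 and was likewise measured on 1 of 2 arrays labelled luteolin. CCNE2 (cyclin E2) was well above background on both DMSO arrays and on neither array labelled luteolin, and was at least 7.97-fold lower. For this lower limit a dim array counts as its own signal or its detection limit, whichever is higher, the detection limit being the dimmest probe that passed there.

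CDC25A, a phosphatase that activates CDK2, fell by 2.80, CDK2 by 1.72, CCNE1 (cyclin E1) by 1.39 and RBL1 (p107), itself a cycle-regulated gene, by 1.73. RB1 and RBL2 (p130), which act in resting cells, changed by 0.10 and 0.02. E2F4 and E2F5, the E2F factors of repressor complexes, changed by 0.05 and -0.14. CDK4 and CDK6 changed by -0.31 and -0.05. CCND1 (cyclin D1) was at 2.51 and 2.27 with DMSO and at 1.78 and 1.03 with the luteolin label (-0.98, adjusted p = 0.0245), just short of the 2-fold minimum. Its 3 probes ranged from -1.17 to -0.41, and 1 of them was lowered. CCND1 was past the threshold under quantile normalization, under scaling to the array median and with the median over its probes. E2F7 lay at 1.68 and 1.88 with DMSO and at 2.11 and 3.11 with the luteolin label (0.83, adjusted p = 0.0872), unlike E2F8, its close relative.

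CDK inhibitors were raised in 4 and lowered in 1 of 7 genes. CDKN2B (p15), an inhibitor of CDK4 and CDK6, had the largest rise among genes with a RefSeq symbol measured on all 4 arrays. It was at -0.52 and -0.39 with DMSO and at 3.05 and 3.74 with the luteolin label, 14.5-fold higher (3.86, SE 0.40, adjusted p = 0.000838). Its probe lies at chr9:21994945-21995004 of hg18. CDKN1A (p21) went from -1.15 and -1.13 to 0.68 and 0.98 (1.97, adjusted p = 0.00458), CDKN1C (p57) rose by 1.84 and CDKN2A (p16 and ARF) by 1.30. CDKN1B (p27) changed by 0.75 (adjusted p = 0.0475) and CDKN2D (p19) by 0.64 (adjusted p = 0.0644), both under 2-fold. CDKN2C (p18), a cycle-regulated member of the p15 family, went the other way and fell by 1.14 (adjusted p = 0.0105). The count of 4 raised was 3 without luteolin replicate 2 and without either DMSO array, and in each of these cases, as against the 0 h arrays, 0 were lowered.

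Stretches of 7 promoters of lowered genes are shown because they carry the letters of sites known for S phase and mitotic genes. They are written 5′ to 3′ on the gene's strand from RefSeq sequence of GRCh38.p14, with matched letters in capitals. The letters searched were TTTCGCGC and TTTGGCGC (E2F sites), TTTGAA (the cell cycle genes homology region, CHR) and CCAAT (the box bound by NF-Y), and GTAAACA (FOXO) where present, on both strands. Matches of different motifs may overlap.
PLK1: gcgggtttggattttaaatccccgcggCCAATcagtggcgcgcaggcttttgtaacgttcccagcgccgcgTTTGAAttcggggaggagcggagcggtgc
CCNB2: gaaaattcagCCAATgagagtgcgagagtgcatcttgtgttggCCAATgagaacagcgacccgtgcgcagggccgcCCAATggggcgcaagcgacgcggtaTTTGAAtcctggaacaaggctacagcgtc
CDK1: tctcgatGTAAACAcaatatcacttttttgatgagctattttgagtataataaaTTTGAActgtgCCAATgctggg
E2F1: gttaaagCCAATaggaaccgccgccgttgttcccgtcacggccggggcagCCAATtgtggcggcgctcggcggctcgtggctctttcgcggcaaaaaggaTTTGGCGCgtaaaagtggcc
E2F2: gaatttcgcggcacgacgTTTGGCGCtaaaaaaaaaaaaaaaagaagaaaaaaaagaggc
DTL: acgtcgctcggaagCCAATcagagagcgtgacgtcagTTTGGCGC
RRM2: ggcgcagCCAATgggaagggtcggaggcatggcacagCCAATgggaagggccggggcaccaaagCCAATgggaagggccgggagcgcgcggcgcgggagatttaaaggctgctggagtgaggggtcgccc
The stretches lie at chr16:23678789-23678888 (PLK1, plus strand), chr15:59105016-59105145 (CCNB2, plus), chr10:60778116-60778191 (CDK1, plus), chr20:33686386-33686505 (E2F1, minus), chr1:23531234-23531293 (E2F2, minus), chr1:212035703-212035747 (DTL, plus) and chr2:10122609-10122738 (RRM2, plus).

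Promoters of 10784 of the 19718 genes were matched in the RefSeq table, each from 250 bases before to 50 bases after the start. E2F letters were present in 2.08% of all of these, in 1.43% of the 770 raised and in 5.8% of the 690 lowered genes. CHR letters were present in 9.96% of all, 10% of raised and 20.3% of lowered genes, and CCAAT in 36.9%, 36.1% and 45.5%. The lists differed in which letters they held. In the mitosis list 19 of 30 promoters had CHR letters (63.3%) and 2 had E2F letters (6.67%). In the licensing list 1 of 25 had CHR letters (4%) and 7 had E2F letters (28%). CCAAT was present in 22 of the 30 mitosis promoters (73.3%) and 17 of the 25 licensing promoters (68%). RRM2, whose stretch above holds 3 CCAAT boxes, had no E2F letters in that stretch. The motifs and lists were chosen with the values known, and a match is a description of letters, not of a bound site.

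**Figure D3:**
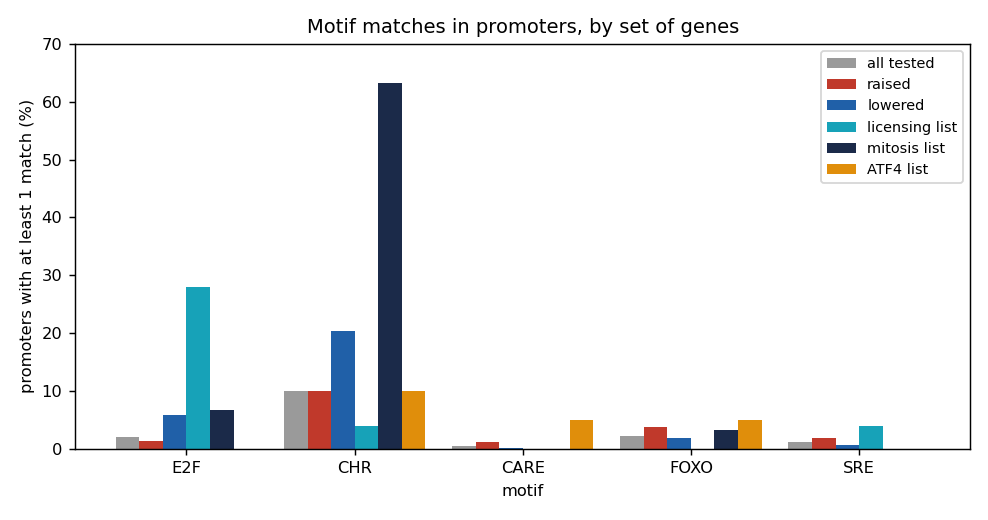
Bars give the share of promoters (%, vertical axis) with at least 1 match to the letters of E2F, CHR, CARE, FOXO or SRE on either strand, for all genes with a promoter, the raised and lowered genes, and the licensing, mitosis and ATF4 lists. CHR letters stand at 63.3% in the mitosis list against 9.96% of all promoters, and E2F letters at 28% in the licensing list against 2.08%.

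Histone and spindle genes were grouped by symbol after their values were seen. Of 69 histone genes, 11 were raised and 12 lowered, and the types differed in direction. Among 13 clustered H4 genes 7 were lowered and 1 (H4C8) raised, with a median change of -1.83 that was -0.61 under normexp background correction. H4C3 was at 6.59 and 6.54 with DMSO and at 3.30 and 2.49 with the luteolin label (-3.67, adjusted p = 0.000219), and H4C13 fell by 3.86. Among 16 clustered H2B genes 4 were raised, 0 were lowered and all 16 had a change above 0 (median 0.86). H2A genes were mixed, with 5 raised and 2 lowered of 15. H2BC5 rose by 1.12 and H2AC18 by 1.71, while H3C7 was the 1 lowered of 11 clustered H3 genes, all of which had a change below 0 (median -0.70). The directions of the H4, H2B and H3 medians were the same under the other scalings. Labelling began at poly(A) with oligo-dT, whereas replication-dependent histone mRNA usually ends in a stem-loop without poly(A), so these probes see only what was primed. Clustered histone genes of a type are nearly identical and their probes may share targets, so their values are uncertain gene by gene.

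Centromere proteins were lowered in 11 of 18 genes and raised in 0 (median -1.53), with CENPU at -2.72 and CENPA, the centromeric histone, at -1.87. Of 30 kinesins, 12 were lowered and 0 raised (median -0.40). Those lowered included KIF20A (-2.79), KIF2C (-2.45), KIF23 (-2.33) and KIF11 (-2.18), motors of the spindle and midbody. Tubulins were lowered in 13 of 18 genes (median -1.15), with TUBA1A at -1.98 and TUBA1B, which went from 7.04 and 7.01 to 5.51 and 4.87, at -1.83. TUBAL3, an alpha-tubulin-like gene, was the 1 raised (3.00), and it was not called under normexp background correction. Tubulin genes are also close copies of one another. Ribosomal protein genes had 0 called of 77 (median 0.14), complex I subunits 0 of 37 (median -0.24) and proteasome subunits 2 lowered of 37, PSMD2 and PSMA4 (median -0.56).

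The genes of the ATF4 and CHOP stress response rose in the arrays labelled luteolin. Of 24 tested, 21 were raised and 0 lowered, with a median change of 1.88, which was 1.65 within slide 1 and 2.15 within slide 2. ATF4 itself went from 4.79 and 4.72 to 6.51 and 6.84 (1.92, adjusted p = 0.00368). DDIT3 (CHOP), a factor downstream of ATF4, went from -0.68 and -0.32 to 1.67 and 3.05 (2.86, SE 0.49, adjusted p = 0.00489), with a wide gap between the arrays labelled luteolin. TRIB3, a pseudokinase induced by CHOP, went from 3.39 and 3.60 to 6.17 and 7.04 (3.11, adjusted p = 0.000852). NUPR1, a small stress protein, went from 2.63 and 3.14 to 6.0 and 6.51 (3.37, adjusted p = 0.000537).

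The targets covered amino acid supply as well as signalling. ASNS (asparagine synthetase) went from 3.11 and 3.21 to 5.18 and 5.54 (2.20, adjusted p = 0.000543). SLC7A11, the cystine transporter, went from -1.18 and -1.06 to 1.49 and 2.11 (2.92, adjusted p = 0.000402), and all 3 of its probes were raised. SLC3A2, its partner chain, rose by 1.87 and SLC7A5, a transporter of large neutral amino acids, by 1.13. The serine and one-carbon enzymes PHGDH, PSAT1, SHMT2 and MTHFD2 rose by 1.63, 1.26, 1.18 and 1.24, while PSPH, the last enzyme of serine synthesis, changed by 0.41 (adjusted p = 0.0603). GDF15, a secreted stress cytokine, rose by 2.69, DDIT4, an inhibitor of mTORC1, by 2.23, SESN2 by 2.20 and PPP1R15A, which restores translation, by 1.11. VLDLR (1.01, adjusted p = 0.0509) and ATF5 (-0.49, adjusted p = 0.0676) were the other members not called. Among 17 cytosolic tRNA synthetases, a family grouped after its values were seen, AARS1 (1.59), GARS1 (1.52) and SARS1 (1.07) were raised and 0 were lowered (median 0.40). Leaving out 1 array left 16 to 21 of the ATF4 list raised.

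CHAC1, a glutathione-degrading enzyme, rose by 1.79 (adjusted p = 0.0024), and its promoter is shown because it was the member of this list that held the letters of a C/EBP-ATF response element, TGATGCAA (CARE), here on the opposite strand as TTGCATCA. The stretch lies at chr15:40953256-40953401 of GRCh38.p14 on the plus strand, with CARE and CCAAT letters of both strands in capitals.
CHAC1: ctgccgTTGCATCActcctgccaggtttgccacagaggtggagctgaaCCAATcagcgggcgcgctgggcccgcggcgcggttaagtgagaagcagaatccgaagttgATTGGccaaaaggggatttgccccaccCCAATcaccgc
CARE letters were present in 1 of 20 promoters of the list (5%), in 0.51% of all promoters, 1.17% of raised and 0.145% of lowered genes.

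Genes of the FOXO and PI3K feedback list were raised in 10 of 19 and lowered in 0 (median 1.10). FOXO factors act when PI3K and AKT signalling is low. IRS2, an insulin receptor substrate, went from -1.56 and -1.67 to 0.71 and 1.19 (2.57, adjusted p = 0.00207). PDK4, which restrains glucose oxidation, rose by 2.45, PIK3IP1, an inhibitor of PI3K, by 1.71 and CCNG2, an unconventional cyclin, by 1.69. FOXO4 and FOXO1 rose by 1.86 and 1.10, while FOXO3 changed by 0.60 (adjusted p = 0.0533) and TXNIP by -0.15 (adjusted p = 0.812). The count fell to 6 without luteolin replicate 2 and without either DMSO array. FOXO letters were present in 3.77% of raised, 1.88% of lowered and 2.21% of all promoters.

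The EGF receptor and its relatives were measured because gefitinib, used in the same study, targets that receptor. EGFR was at -0.43 and -0.43 with DMSO and at -0.39 and 0.11 with the luteolin label (0.29, adjusted p = 0.377). Of 15 receptor family genes, ligands and regulators, 3 were raised (20% against 7.2% of all genes) and 0 lowered. ERBB4 went from -5.18 and -4.85 to -2.55 and -2.20 (2.64, adjusted p = 0.00214), ERBB3 rose by 1.32, and ERRFI1, an inhibitor of the receptor, by 1.42. In the list of ERK output and feedback genes 4 of 23 were raised and 2 lowered (median -0.17). These are 17.4% and 8.7%, against 7.2% and 6.17% of all genes. DUSP6, a phosphatase induced by ERK, lay at 3.90 and 3.72 with DMSO and at 3.66 and 3.62 with the luteolin label (-0.17, adjusted p = 0.674). The raised members were EPHA4, DUSP5, IER3 and LIF, with changes of 1.00 to 1.21, and without luteolin replicate 2, 0 of the 23 were called in either direction. Without either DMSO array 1 was raised and 1 lowered, and without luteolin replicate 1, 3 were raised and 5 lowered. EGR1, an immediate early factor, was well above background on both DMSO arrays and on neither array labelled luteolin, at least 3.31-fold lower, but its DMSO arrays differed by over 2 log2 units (-2.74 and -4.87), and its difference from the 0 h arrays was 0.20 (adjusted p = 0.841).

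Other immediate early genes did not follow EGR1. NR4A2, an orphan nuclear receptor, rose by 2.93, RASD1, a small GTPase, by 2.93, JUNB by 1.77, FOSB by 1.40 (measured on 1 of 2 DMSO arrays) and JUND by 1.22, against changes of 0.11 for JUN and -0.84 for FOS that did not pass. Among Kruppel-like factors 7 of 11 were raised and 0 lowered. KLF2 went from -1.76 and -1.94 to 0.52 and 2.12 (3.17, adjusted p = 0.00323), with its other probe at 0.64, and KLF7 rose by 2.74. The Kruppel-like count was 3 without luteolin replicate 2 and 4 without DMSO replicate 2.

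MYC was at 3.38 and 3.26 with DMSO and at 2.76 and 3.14 with the luteolin label (-0.37, adjusted p = 0.365). In the list of MYC, its partners and ribosome biogenesis, 3 of 25 were raised and 6 lowered (median -0.75). These are 12% and 24%, against 7.2% and 6.17% of all genes. All 3 raised genes encode antagonists of MYC: MXD1 (2.41), MXI1 (1.48) and MXD4 (1.22). The 3 probes of MXD4 ranged from 0.31 to 1.35, 2 of them raised, and its call was lost with the median over its probes. Those lowered were the nucleolar factors BOP1 (-1.59), NOP16 (-1.29), NOP58 (-1.15), NOP56 (-1.09) and UTP20 (-1.02), and MXD3 (-1.08). MXD3, the MXD member made in S phase, belongs to the same family of antagonists, so these did not all rise.

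Of 24 genes of cholesterol synthesis and uptake, 11 were raised and 0 lowered (median 0.93). INSIG1, which retains the sterol sensor in the endoplasmic reticulum, rose by 2.15 and MSMO1, a sterol demethylation enzyme, by 1.86. SQLE (squalene epoxidase) went from 2.45 and 2.61 to 4.02 and 4.16, a rise of 1.55. SREBF2, the transcription factor of the pathway, rose by 1.05. HMGCS1, an early enzyme of the pathway, changed by 0.90 (adjusted p = 0.058) and was not called. The count of raised genes fell to 4 without DMSO replicate 1, 6 without luteolin replicate 2 and 7 without DMSO replicate 2, and was 2 against the 0 h arrays. The median change of this list from 0 h to DMSO was -0.38. Of the LXR and sterol export list APOE (1.42) and SMPDL3A (1.41) were raised out of 10 (20% against 7.2% of all genes). In that list 1 was raised without luteolin replicate 2 or either DMSO array.

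Lysosome and autophagy genes were raised in 9 of 22 and lowered in 0 (median 0.95), and all 22 had a change above 0. WIPI1, which acts in autophagosome formation, went from 1.30 and 1.52 to 3.73 and 4.23 (2.57, adjusted p = 0.000653). NPC1, which exports cholesterol from lysosomes, rose by 1.77, SQSTM1 (p62), an autophagy receptor, by 1.72 and MCOLN1, a lysosomal calcium channel, by 1.43. TFEB, a transcription factor of lysosomal genes, changed by 0.31 (adjusted p = 0.304).

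**Figure D4:**
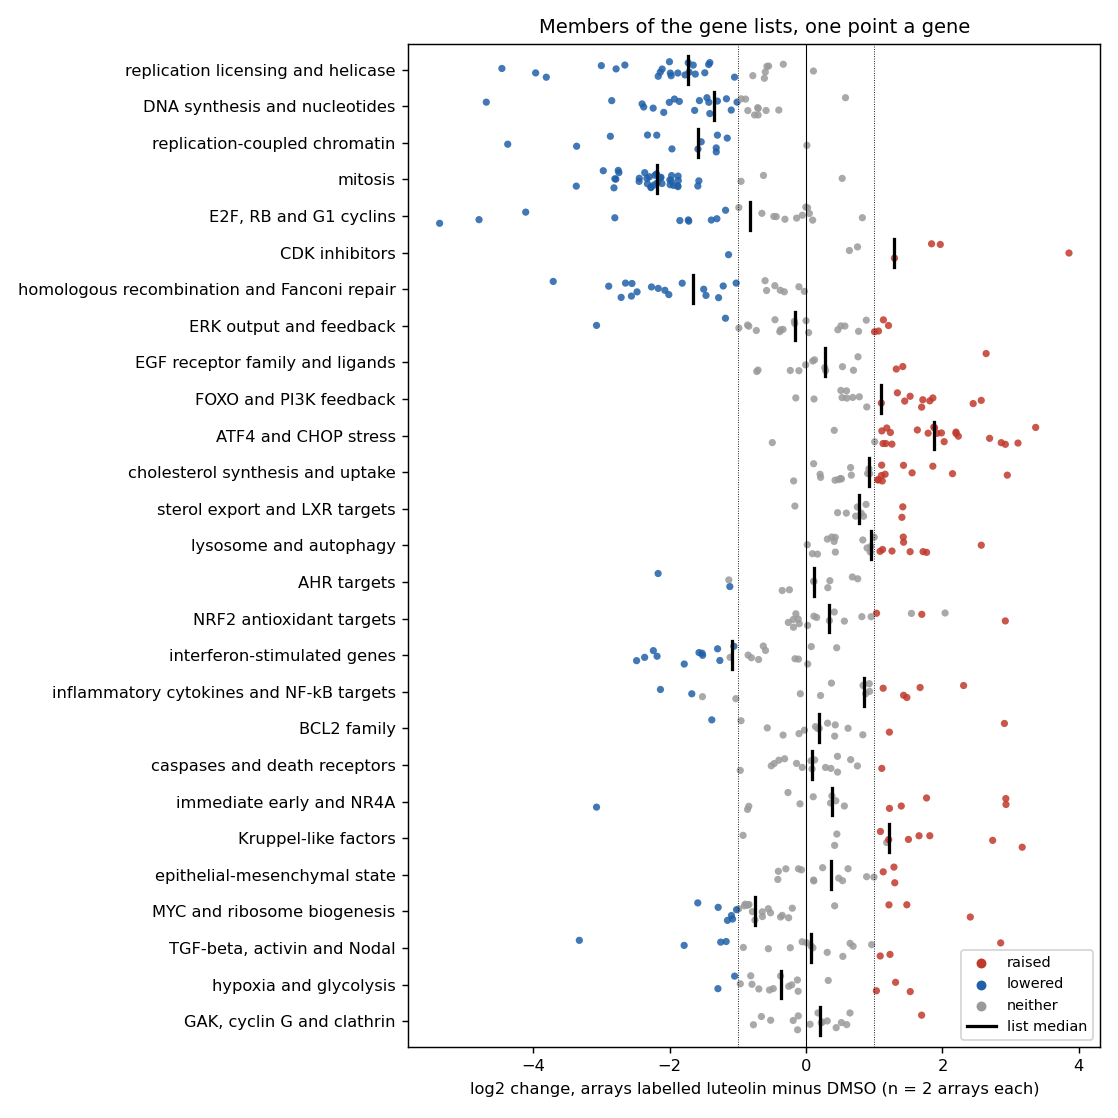
Each point is a gene of 1 of 27 lists, placed at its log2 change between the arrays labelled luteolin and the DMSO arrays (horizontal axis, n = 2 each), red where raised, blue where lowered and gray where neither. Black bars are list medians and dotted lines mark 2-fold. The replication, mitosis and repair lists have medians from -2.19 to -1.36 and the ATF4 list has the highest, 1.88.

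Interferon-stimulated genes were lowered in 11 of 22 and raised in 0 (median -1.09), and the fall was larger on slide 2 (-1.49) than on slide 1 (-0.69). IFIT1, an antiviral RNA sensor, was at 3.49 and 4.04 with DMSO and at 1.71 and 0.85 with the luteolin label (-2.48, adjusted p = 0.0114). MX1, an antiviral GTPase, went from 4.01 and 4.62 to 2.88 and 2.61 (-1.57, adjusted p = 0.0319). MX2, IFI44 and IFI44L fell by 2.37, 2.24 and 2.18. STAT2 (0.45) and IRF9 (-0.16), signalling factors of the interferon response, and IFI6 (0.08) did not pass. In IFIT1 and MX1 the second DMSO array was the highest of the 4. The count of lowered genes was 3 without luteolin replicate 2, 3 without DMSO replicate 2 and 7 without luteolin replicate 1.

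Inflammatory genes were mixed, with 5 raised and 2 lowered of 16, or 31.2% and 12.5% against 7.2% and 6.17% of all genes. The chemokine CXCL2 went from 0.60 and -0.37 to 1.62 and 1.95 (1.67, adjusted p = 0.0182), CXCL3 rose by 1.48, ICAM1, an adhesion molecule, by 1.43 and TNFAIP3, an inhibitor of NF-kB, by 1.13. The call of TNFAIP3 was lost in 11 alternatives, among them the slide as a block, quantile normalization and the median over its probes, and its change was 0.147 against the 0 h arrays. CCL20 was also past the threshold, but none of the 4 arrays measured it above background, so it has no fold. IL1B fell by 1.68 and CSF2 by 2.13, the latter well above background on 1 of 2 arrays labelled luteolin. Without luteolin replicate 2 or without DMSO replicate 2, 1 gene of the list was raised and 0 were lowered, and without DMSO replicate 1 these counts were 2 and 0.

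Genes of apoptosis changed little as groups. In the BCL2 family 2 of 16 were raised and 1 lowered (median 0.18), or 12.5% and 6.25% against 7.2% and 6.17% of all genes. BMF, a BH3-only protein, went from -4.31 and -3.69 to -1.44 and -0.74 (2.91, adjusted p = 0.00245), and PMAIP1 (NOXA) rose by 1.22. BID, the BH3-only protein cut by caspase-8, fell by 1.38 (adjusted p = 0.00121). Without luteolin replicate 2 or either DMSO array, 1 gene of the family was raised. Of 17 caspase and death receptor genes XIAP, an inhibitor of caspases, was the 1 raised (1.11) and 0 were lowered. The share raised was 5.88% against 7.2% of all genes.

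Flavones are known ligands of the aryl hydrocarbon receptor, whose usual targets are CYP1A1 and CYP1B1. In these arrays CYP1B1 was at -1.66 and -0.82 with DMSO and at -3.90 and -2.92 with the luteolin label (-2.17, adjusted p = 0.00989), and CYP1A1 fell by 1.12 (adjusted p = 0.0385). The 2 genes lowered were 18.2% of the list, against 6.17% of all genes. The other 9 genes of the list were not called (median of the list 0.11). The lowered count of 2 was 0 without luteolin replicate 1 or DMSO replicate 2 and 1 without DMSO replicate 1. Of 19 NRF2 antioxidant targets, SLC7A11, AKR1C1 (1.70) and ME1 (1.03) were raised (15.8% against 7.2% of all genes), with NQO1 at 0.12 (adjusted p = 0.836). HMOX1 was at 0.49 and 1.38 with DMSO and at 2.37 and 3.58 with the luteolin label (2.04, SE 1.03, adjusted p = 0.186). Its change was 1.88 within slide 1 and 2.20 within slide 2, and with the replicate number or the slide as a block, or in a fit of the 4 arrays alone, HMOX1 was past the threshold (adjusted p of 0.0304 to 0.0446).

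GAK, the kinase that the study centred on, was at 0.66 and 0.44 with DMSO and at 0.85 and 0.88 with the luteolin label (0.31, SE 0.17, adjusted p = 0.232). In its list with clathrin and cyclin G genes 1 of 16 was raised, CCNG2, which is 6.25% against 7.2% of all genes. The shares of all genes, 7.2% raised and 6.17% lowered, also stand beside the small counts of the lists that follow. Among the TGF-beta, activin and Nodal genes 3 of 19 were raised and 4 lowered. INHBB, an activin subunit, went from 5.23 and 5.65 to 2.14 and 2.09 (-3.32, adjusted p = 0.000116), and SMAD3, a receptor-activated SMAD, fell by 1.79. LEFTY1, a Nodal inhibitor, was well above background on both arrays labelled luteolin and on neither DMSO array, at least 3.96-fold higher. LEFTY1 was at -4.46 and -3.17 with the luteolin label, at -2.08 and -3.75 with the gefitinib label and at -0.09 and 0.26 with the label of both, so its mean level was lowest with the luteolin label, whose arrays overlapped those of the gefitinib label. It was lower with the luteolin label than with that of both by -3.90 (adjusted p = 0.00162), and its difference from the gefitinib label was -0.90 (adjusted p = 0.189). Against untreated cells, and from the arrays of this series, the study reported the largest LEFTY1 rise with luteolin. It reported a smaller one with both drugs and the smallest with gefitinib. Its qRT-PCR bore out the rise with each drug alone but not that with both. By the file names the mean levels of LEFTY1 here run in the order of the study's array values, and by the labels they do not. The sizes of its rises over the 0 h arrays also lie close to the reported ones by the file names, not by the labels. With the luteolin label that rise was 2.40 in log2. Which assignment is right was not tested. CDH1 (E-cadherin) rose by 1.29 and OCLN (occludin) by 1.30, with SNAI1 (1.13) the 1 other raised of 16 genes of the epithelial-mesenchymal list and VIM at 0.24 (adjusted p = 0.409). In the hypoxia and glycolysis list 3 of 17 were raised, NDRG1, ANKRD37 and VEGFA, and 2 lowered, PDK1 (-1.29) and ENO1 (-1.05). Without luteolin replicate 2 or DMSO replicate 2, 0 TGF-beta genes were raised and 1 lowered, and without DMSO replicate 1, 1 was raised. Without either DMSO array 1 gene of the epithelial-mesenchymal list was raised. In the hypoxia list 0 were raised without luteolin replicate 2 or either DMSO array, and 1 was lowered without luteolin replicate 2 or DMSO replicate 1.

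Outside the lists, the largest rises among genes measured on all 4 arrays included SCARA5, a scavenger receptor. It went from -0.22 and -0.11 to 3.49 and 3.48 (3.65, adjusted p = 7.94e-05), although its other probe changed by 0.42. AGR2, a secretory disulfide isomerase, went from 1.21 and 0.78 to 4.4 and 4.31 (3.36, adjusted p = 0.000477), and S100P, a calcium-binding protein, rose by 3.27. LSMEM1 (3.21), TM4SF19 (3.17), TCP11L2 (2.97) and ARG2 (2.93), the mitochondrial arginase, were also among the 12 largest, with the list members CDKN2B, NUPR1, KLF2 and TRIB3. Beside list members and H4 genes, the largest falls were those of SPC25, a kinetochore subunit (-4.00), LHX2, a homeobox factor (-3.94), DHRS2, a reductase (-3.91), and WDR76 (-3.33). LHX2 went from -0.33 and -0.48 to -4.29 and -4.41, and DHRS2 from -0.45 and -0.34 to -4.52 and -4.09.

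Some genes were measured in only 1 of the groups. PTGS2 (COX-2, the inducible prostaglandin synthase) was not well above background on either DMSO array and was at -3.12 and -3.07 with the luteolin label, at least 6.5-fold higher. RHOH and RGS9 were at least 6.31-fold and 6.27-fold higher in the same sense, LOX (lysyl oxidase) at least 5.61-fold and CCDC30 at least 5.35-fold. FAM111B, a protease gene, was at -0.31 and -0.46 with DMSO and not well above background on either array labelled luteolin, at least 34.2-fold lower. RPRML, XAF1 and C6orf118 were at least 4.92-fold, 4.74-fold and 4.48-fold lower. C6orf118 was well above background on the 2 DMSO arrays and on no other array, and its level with the luteolin label differed from that at 0 h by -0.23 (adjusted p = 0.758). In all, 192 raised genes were not well above background on either DMSO array and 136 lowered genes on neither array labelled luteolin.

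The arrays labelled luteolin were also tested against the other drug-treated arrays, by the same threshold. Of all genes, 18.1% were higher and 18.5% lower than in the arrays labelled gefitinib, and 9.75% were higher and 11.3% lower than in those labelled with both drugs. The other drug-treated arrays were dimmer. Their 75th percentiles were 650.7 and 628.4 with the gefitinib label and 864.6 and 539.8 with that of both, against 1173 and 1041. Gefitinib replicate 2 lay on slide 3, away from both arrays labelled luteolin. The part of brightness and slide in these differences was not tested. Of the 29 licensing genes, 17 were lower and 1 higher than with the gefitinib label, and 19 were lower and 0 higher than with the label of both. Of the 36 mitosis genes the counts lower were 24 and 11, and of the 24 repair genes 17 and 14. ATF4 genes were higher in 14 and 10 of 24, and FOXO genes in 14 and 6 of 19. Interferon-stimulated genes were lower in 11 and 12 of 22 and higher in 0.

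Named genes show how the labelled groups differed. RRM2 was lower than with the gefitinib label by -4.83 (adjusted p = 2.67e-05) and than with the label of both by -3.35 (adjusted p = 0.00018). DDIT3 was higher by 3.30 (adjusted p = 0.000852) and 3.09 (adjusted p = 0.00251), and WIPI1 by 3.78 and 3.27. CCNB1 differed from the 2 groups by -0.09 (adjusted p = 0.81) and 0.12 (adjusted p = 0.756). The shared fit gives each of these differences the same standard error as its change against DMSO. CDKN2B was higher by 2.16 (adjusted p = 0.00228) and 1.14 (adjusted p = 0.0489), whereas CDKN1A differed by 0.60 (adjusted p = 0.149) and 0.31 (adjusted p = 0.474). DUSP6 was higher than with the gefitinib label by 3.62 (adjusted p = 5.82e-05), and its difference from the label of both was 0.74 (adjusted p = 0.0508). LMNB1 and CDC25A were higher than with the gefitinib label, by 1.41 and 2.05, although both had fallen against DMSO.

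Each drug-treated group was set against the same 2 DMSO arrays, so their changes share those arrays and are given side by side. In the order labelled luteolin, gefitinib and both, the median change was -1.73, -0.09 and -0.38 for licensing, -2.19, -1.04 and -1.53 for mitosis, -1.66, -0.11 and -0.28 for repair, 1.88, 0.46 and 0.99 for the ATF4 list and -1.09, 0.03 and 0.03 for interferon-stimulated genes. By the file names, the arrays labelled with both drugs would be those given luteolin. Under that reading 2 of 29 licensing, 27 of 36 mitosis and 2 of 24 repair genes were lowered against DMSO, 10 of 24 ATF4 genes were raised, and 2386 genes were raised and 1517 lowered in all.

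**Figure D5:**
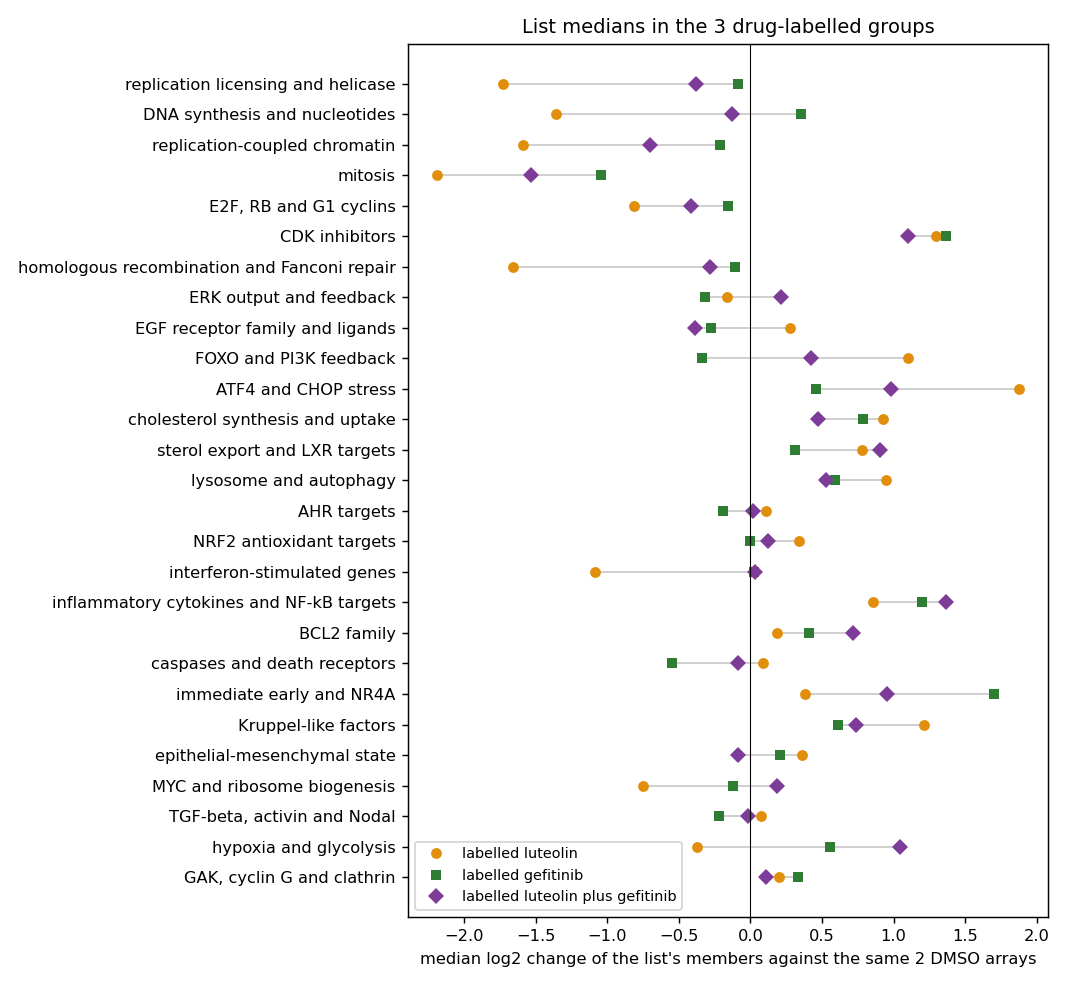
Points give the median log2 change of each of 27 lists against the same 2 DMSO arrays (horizontal axis) for the arrays labelled luteolin (orange circles), gefitinib (green squares) and both (purple diamonds). The orange points are the lowest for the replication, mitosis, repair and interferon lists and the highest for the ATF4 and FOXO lists.

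The markers of the cell line were checked against its label. KRT8, KRT18, KRT19, EPCAM and CD44, markers of epithelial tumor cells such as PC-3, were well above background on all 10 arrays, and 0 of these 5 were called. The probe for KLK3 (prostate-specific antigen), which PC-3 cells are known to lack, was bright, at 3.38 and 3.67 with DMSO and 3.62 and 3.74 with the luteolin label. Whether this probe also binds other transcripts was not tested, so its signal may not be a level of KLK3. PTPRC, VWF, DCN and PDGFRB, markers of leukocytes, endothelium and fibroblasts, were well above background on 0 of 10 arrays and CDH5 on 0 of the 4 compared, while PECAM1 changed by 1.28 (adjusted p = 0.0511). PECAM1, an endothelial marker, CD68 and CD3E were well above background on all 10 arrays, COL1A1 on 9 and LUM on 8. The summed level of the leukocyte markers, as a percentage of the 75th percentile, was 70.4 and 76.9 with DMSO and 99.2 and 96.6 with the luteolin label, nearly all of it CD68, against 14170 and 12640 and 14090 and 12630 for the 5 epithelial markers, and its part in the results was not tested.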

How the data were processed

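mRNA of PC-3 cells was hybridised to 1-color Agilent arrays. The authors deposited Agilent Feature Extraction files (version 10.7.3.1 in their headers), whose intensity is the processed signal with background subtracted and no normalization between arrays. The series' value table equals them within a relative tolerance of 1e-04, and 0 per-sample columns were unused. Samples were grouped by title.

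Control and outlier spots were left out, spots of a probe averaged, and log2 signals scaled to the 75th percentile in R (4.3.3) with the packages limma (3.58.1) and data.table (1.17.8). A probe was well above background with at least 50% of its spots so marked. RefSeq (GRCh38.p14) symbols were found by accession for 23958 probes and by symbol for 2755, and 11562 kept the file's name. The probe with the highest mean stood for each of the 5659 genes with several probes. The limma fit covered 10 arrays in 5 groups (residual degrees of freedom 5, prior 3.35), with p adjusted over all probes kept. The p-values measure spread between the labelled biological replicates. The script was tested on simulated data. Motif counts and figures used Python 3.11.15, pandas 2.3.3 and matplotlib 3.10.9.

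Genes named are the 12 RefSeq-named genes with the largest rises and falls well above background on all 4 arrays with groups that do not overlap, up to 5 called members per list and direction, 5 measured in only 1 group in each direction, genes chosen regardless of outcome, and list members that show where a list divides, which were picked after their values were seen. Some genes are not reported here. Members, lists and motifs were chosen with earlier results of these data known.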

Additional observations from a re-analysis of the deposited data

How the results depend on the processing

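The counts of 1420 raised and 1216 lowered genes were 903 and 788 under normexp background correction with an offset of 50, 2810 and 2321 with no minimum fold, and 2386 and 1517 by the file names' treatments. The 1-sample t-test of the methods gave 700 and 426 without adjustment and 0 and 0 after Benjamini-Hochberg adjustment. Leaving out 1 array gave 913 to 1390 raised and 723 to 1394 lowered genes. Without luteolin replicate 2, 43 of 150 named genes lost their call, and none changed sign under any such removal. Quantile normalization gave 1268 and 1324, so that 48.9% of calls were raised against 53.9%. With the replicate number as a block the counts were 1434 and 1249, and 148 of 150 named genes kept direction and call. In the 4 arrays compared the number coincides with the slide, and the deviations of same-numbered arrays correlated with r = 0.213. The other filters, scalings and controls moved each count by less than 1.5 times.

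Of 150 named genes, 69 kept direction and call with the treatments of the file names. There 57 lost their call, among them DTL, MCM10, E2F1, TRIB3 and SLC7A11, 1 gained a call and 23 turned. Directions turned under 2 alternatives. With the treatments of the file names they were those of BID (0.19), CCND1 (0.45), CSF2 (2.18), DDIT3 (-0.23), EGFR (-0.91), EGR1 (0.29), ENO1 (0.54), EPHA2 (0.45), ERBB4 (-1.43), GABARAPL1 (-0.47), IFIT1 (0.0517), MXD4 (-0.53), MYC (0.51), NOP16 (0.24), NOP56 (0.20), NOP58 (0.022), OAS3 (0.30), PDK1 (0.68), SMAD3 (0.79), SMPDL3A (-0.58), TYMS (0.30), WIPI1 (-0.70) and XRCC2 (0.84), since another pair of arrays is then compared. Against the 0 h arrays they were those of DUSP6 (0.37), EGR1 (0.20), HMGCS1 (-0.19) and MYC (0.0158), and the cause was not tested. The 2 arrays per group and the signal over background limit every value, and small changes of dim genes were not detectable.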
